A study of Mus musculus with 57 samples.

Results

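FOXA2 single-positive mouse cells were compared at day 6 of differentiation between progeny, meaning the descendants of cells sorted at day 2 and then replated, and cells sorted directly at day 6. The members are the 6 samples titled Progeny_Day6_Sox1-FoxA2+ or Day6_Sox1-FoxA2+, with 3 biological replicates on each side, out of 57 samples in the series. All came from 1 clone of embryonic stem cells that carries a green reporter (EGFP) in place of 1 Sox1 allele and mCherry fused to FOXA2, and all were given 1 uM retinoic acid. For the sorted samples, cells were differentiated in serum-free N2B27 medium and collected by flow cytometry on day 6 as negative for the green and positive for the red reporter. For the progeny, cells of that gate were collected on day 2, plated on gelatin in serum medium with retinoic acid and without LIF, and harvested 4 days later. The methods describe counting these cells at harvest and name no further sort, whereas the deposited extraction protocol speaks of sorted cells for every sample, so whether the progeny were gated again is not settled. The day of sorting, replating, serum and possibly a later gate therefore differ together between the sides. Their parts in any difference cannot be told apart. A gate on day 6 can also collect cells that became positive for FOXA2 after day 2. The progeny descend only from cells positive on day 2.

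FOXA2 is a pioneer transcription factor of endoderm, and SOX1 is an early marker of neural ectoderm. In mouse stem cell cultures given retinoic acid, cells with FOXA2 can take on features of extraembryonic endoderm, which has a parietal form, rich in laminin and collagen IV of the basement membrane, and a visceral form, which makes apolipoproteins and takes up nutrients. GATA4, GATA6 and SOX17 act in both forms. Cells in serum receive growth factors and lipoproteins that a serum-free medium lacks, and cells that import cholesterol shut down the genes for making it through the SREBP factors.

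RNA was measured by sequencing small pools of cells, and values are given as CPM, the counts of a gene scaled to the library total and then by TMM factors. Total counts were 36694379, 31592963 and 26156124 in sorted replicates 1 to 3 and 45254423, 76784146 and 43152670 in progeny replicates 1 to 3. Groups are said not to overlap where every progeny sample lies above, or every one below, all sorted samples. Each of 18030 genes was tested with edgeR, and a gene passed at a Benjamini-Hochberg adjusted p under 0.05 over all genes tested. The median log2 ratio over tested genes was -0.06 with TMM, -0.13 with DESeq2 size factors and -0.21 without scaling. In pools of cells, fewer cells of a type and less RNA per cell cannot be told apart.

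Foxa2 read 73, 40.8 and 61.6 CPM in the sorted samples and 80.3, 88.4 and 80.2 in the progeny. The transcript was present in all 6 samples, and the progeny lay above the sorted samples. Its log2 fold change, progeny over sorted, was 0.51 and did not pass (edgeR adjusted p 0.703). Such separation upward was seen for 10.8% of all genes tested and downward for 6.91%, and these shares are the yardstick for the counts that follow. Sox1 had 0 counts in all 57 samples, those sorted for the Sox1 reporter included, so the table cannot check that side of the label. Sox2, Tubb3, Srf, Mvd and B2m were among 35 listed genes with 0 counts in the whole series, and nothing is read from their values.

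Several endoderm transcription factors were expressed on both sides. Of the 17 transcription factors listed for endoderm, 15 were tested and 0 passed, with a median log2 fold change of 0.37 against -0.06 over all genes. Gata4, the most abundant of them, read 671, 526 and 435 CPM in sorted and 414, 767 and 579.9 in progeny samples, overlapping ranges. Sox17 read 66.1, 97 and 15 CPM in sorted and 102, 123 and 103 in progeny samples, with every progeny sample higher and the lowest value in sorted replicate 3. Fold changes were above 0 for 9 of the 15, while Foxa1, Lhx1 and Hnf4a stood at -5.65, -4.34 and -1.35 on the log2 scale, with overlap. Summed over the list, the sorted samples held 1739, 1442 and 914 CPM and the progeny 1072, 2219 and 1835. The ranges overlapped (exact permutation p 0.4, where 0.1 is the smallest that 3 samples against 3 can give).

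Laminin and collagen IV genes of the basement membrane were abundant in both groups. Lama1, the alpha chain of laminin-111, read 16407, 7955 and 6782 CPM in sorted and 8501, 17175 and 15388 in progeny samples. Col4a1, a chain of collagen IV, read 16071, 5787 and 5733 CPM in sorted and 10109, 14369 and 13217 in progeny samples. For both genes sorted replicate 1 was as high as the higher progeny samples, and progeny replicate 1 was the lowest of its group. The parietal endoderm list of 24, which also holds keratins and receptors, summed to 78361, 38431 and 33426 CPM in sorted and 48465, 84996 and 75286 in progeny samples, with overlap (exact permutation p 0.3). None of the 24 passed, 3 lay above and 2 below without overlap, shares near those of all genes, and their median was 0.49. Fold changes above 0 were found for 21 of them (87.5%) and for 47.3% of all genes tested. Genes of the list can vary together between samples, as Lama1 and Col4a1 did, so these are not 24 separate observations. Nid2, a basement membrane nidogen, was higher in every progeny sample (945, 701 and 586 CPM against 535, 247 and 295). Thbd, which encodes thrombomodulin, was too, at 50.3, 258 and 291 CPM in progeny and 14.2, 0 and 8.66 in sorted samples, but progeny replicate 1 was far below the others. Dab2, an endocytic adaptor, ran the other way, at 518, 629.8 and 602 CPM in progeny and 1373, 1514 and 941 in sorted samples.

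Apoe passed the test at day 6, as the 1 gene of 18030 that did (0.00555% of those tested). It lies at chr7:19696109-19699188 (GRCm38, GENCODE M21) and encodes apolipoprotein E, a lipid carrier made by visceral endoderm and a target of the sterol sensor LXR. The sorted samples held 115, 109 and 95.4 CPM and the progeny 5.54, 6.83 and 9.27. All 3 progeny samples were far below all 3 sorted samples, and the spread within each group was small beside the gap. The log2 fold change was -3.88 (SE 0.34, n = 3 per group, edgeR adjusted p 0.0131). Apob, the protein of chylomicrons and low-density lipoprotein, was also lower in every progeny sample, at 1.65, 1.05 and 1.42 CPM against 8.05, 11.1 and 13.4, and did not pass (log2 fold change -2.98). More abundant visceral genes overlapped between the groups. Lrp2, the endocytic receptor megalin and the most abundant gene of the list, read 2542, 1302 and 564 CPM in sorted and 1967, 2111 and 3006 in progeny samples, and its partner Cubn 1636, 876 and 654 in sorted and 448, 431 and 762 in progeny samples. Of 27 visceral genes listed, 18 were tested and 3 lay below without overlap. The list's sum overlapped (5388, 3110 and 2024 CPM in sorted, 3307, 3225 and 4464 in progeny samples, exact permutation p 0.8). Without Lrp2 it was lower in every progeny sample, by a narrow gap (2845, 1808 and 1459 CPM in sorted, 1341, 1115 and 1458 in progeny samples, exact permutation p 0.1). Trf, Apoa2, Apoa4, Fga and Fgg were at 0 in all 6 samples.

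Few genes passed one by one, while more separated the groups. Separation of 3 samples from 3 has an exact permutation p of 0.1, so part of these genes would separate without any change. Unadjusted p was under 0.05 for 1593 genes, and 1955 genes lay above and 1246 below without overlap. Within groups, the median standard deviation of log2 CPM over 5000 genes was 0.268 in progeny and 0.425 in sorted samples. The count of calls turned on single samples. Without sorted replicate 3 there were 12, 4 higher and 8 lower, with Apoe at an edgeR adjusted p of 0.00465. Leaving out sorted replicate 1 or 2, or progeny replicate 1, 2 or 3, each left 0, with Apoe at edgeR adjusted p values of 0.27, 0.144, 0.17, 0.163 and 0.0554. Its log2 fold change stayed between -4.10 and -3.72 across those 6 leave-outs. DESeq2 called 379 genes higher and 376 lower in the same 6 samples, out of 27159 genes that it tested. When the Sox1 single-positive and double-positive samples of day 6, sorted and progeny, helped to set the spread (18 samples in 1 edgeR fit, without the cells negative for both reporters), 30 genes passed as higher in progeny (0.118% of those tested) and 7 as lower (0.0274%). Genes that passed there are named as such below.

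**Figure D1:**
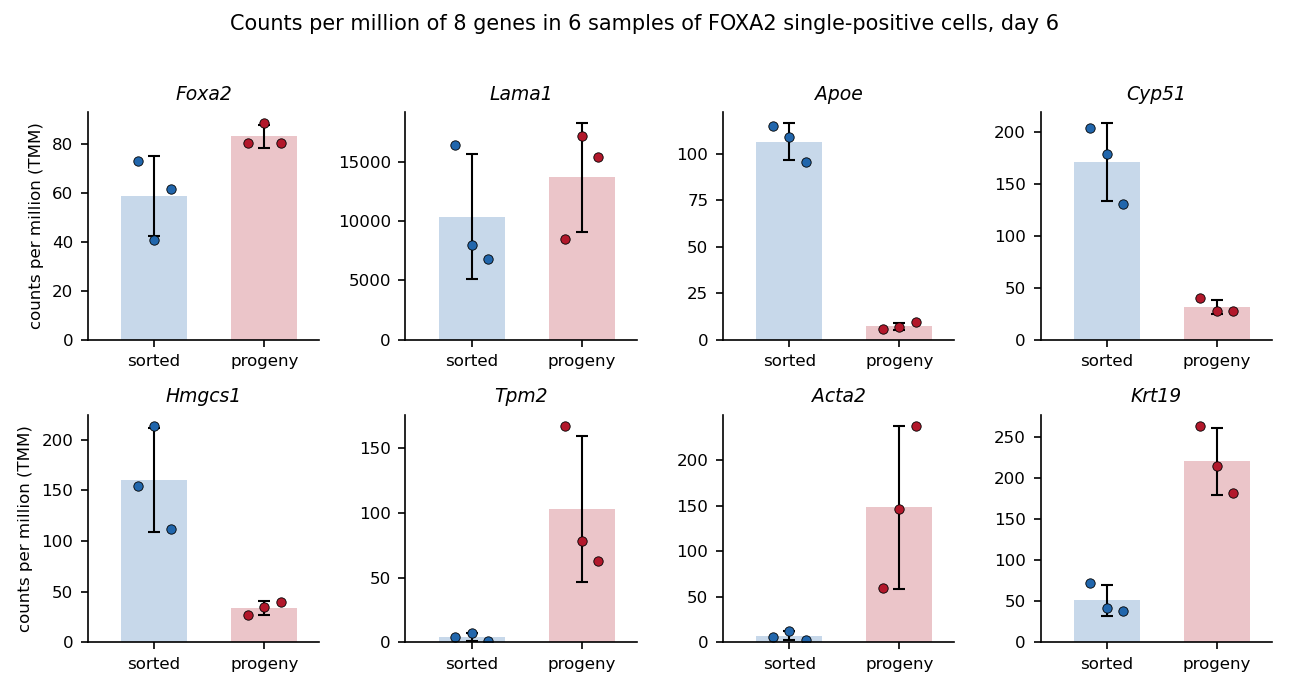
CPM (TMM) in each of the 6 samples for 8 genes, with bars at group means and error bars of 1 standard deviation (n = 3). Apoe, Cyp51 and Hmgcs1 are lower and Tpm2, Acta2 and Krt19 higher in every progeny sample, while Lama1 overlaps between the groups.

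The genes for making cholesterol and taking it up were lower in the progeny as a group. Of 26 tested, 2 had a fold change above 0, 11 lay below without overlap and 0 above, and the median was -1.39. None passed in the 6 samples, and 3 passed as lower in the fit of 18 samples. Hmgcs1, the synthase that makes HMG-CoA at the entry of the pathway, read 154, 214 and 112 CPM in sorted and 27.1, 34.9 and 40 in progeny samples. Cyp51, the lanosterol demethylase, read 204, 179 and 130.4 CPM in sorted and 39.7, 27.6 and 27.9 in progeny samples, and Fdft1, squalene synthase, 236, 293 and 235 in sorted and 79.2, 36.6 and 51.1 in progeny samples. In each of the 3 genes every progeny sample was under every sorted sample. Their log2 fold changes were -2.24, -2.43 and -2.19, and their edgeR adjusted p values 0.0378, 0.0124 and 0.0495 with 18 samples against 0.122, 0.119 and 0.122 with 6. Sqle, the squalene epoxidase, read 113, 98.7 and 81.4 CPM in sorted and 29.1, 19.5 and 21.3 in progeny samples. Insig1, which holds SREBP back when sterols are plentiful and was the most abundant of the list, overlapped, at 596, 790.3 and 337 CPM in sorted and 133, 378 and 410.4 in progeny samples. Summed, the list gave 2921, 2819 and 1641 CPM in sorted and 1055, 1039 and 1187 in progeny samples, without overlap (exact permutation p 0.1).

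Fatty acid genes leaned the same way. Of 16 tested, 10 lay below without overlap and 1 above, with a median of -0.89. Scd1, a desaturase, read 286, 262 and 185 CPM in sorted and 56.6, 96.9 and 109 in progeny samples. Fads1, which desaturates long chains, read 157, 158 and 65.4 CPM in sorted and 43.6, 36.8 and 46.1 in progeny samples, and Acly, which makes cytosolic acetyl-CoA, 566, 703 and 464 in sorted and 230.4, 282 and 338 in progeny samples. None passed. Me1, malic enzyme, was the exception above, at 324, 386 and 344 CPM in progeny and 196, 177 and 189.6 in sorted samples, and Scd2, the most abundant gene of the list, overlapped (392, 727 and 767 against 1143, 747 and 512). The list's sum overlapped too, since progeny replicates 2 and 3 and sorted replicate 3 were close (2116, 2684 and 2704 CPM in progeny, 4303, 3814 and 2582 in sorted samples). Without Scd2 the sum was lower in every progeny sample (1725, 1957 and 1937 CPM in progeny, 3160, 3067 and 2070.5 in sorted samples, exact permutation p 0.1).

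Genes that move sterol out of cells or compartments were mixed. Abca1, the cholesterol exporter, read 98.9, 176 and 223 CPM in progeny and 24.6, 8.58 and 48.7 in sorted samples, every progeny sample being higher. Npc1, which releases cholesterol from lysosomes, was higher in every progeny sample (69.7, 66.4 and 73.8 CPM against 36.3, 21.7 and 43.8), and its soluble partner Npc2 lower (39.5, 33.7 and 34.2 against 55.7, 49.9 and 80.9). Of 10 export and LXR genes tested, 3 lay above and 2 below, Apoe among the latter. Soat1, which esterifies cholesterol and was the most abundant, overlapped (196, 272 and 329 CPM in progeny, 412, 190.4 and 106 in sorted samples).

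Contractile genes and targets of SRF and YAP, which respond to actin tension and serum, were higher in the progeny. Of 26 tested, 24 had a fold change above 0, 16 lay above without overlap and 1 below, and the median was 1.42. None passed with 6 samples and 3 passed with 18. Tpm2, a tropomyosin that steadies actin filaments, read 4.41, 6.99 and 1.09 CPM in sorted and 167, 78.3 and 62.5 in progeny samples (log2 fold change 4.62; edgeR adjusted p 0.122 with 6 samples and 0.00024 with 18). Tpm1, another tropomyosin, read 157, 229 and 235 CPM in sorted and 1307, 613 and 573 in progeny samples, with adjusted p values of 0.187 and 0.00887 in the same edgeR fits. Acta2, smooth muscle actin, read 5.68, 13 and 3.14 CPM in sorted and 59.5, 147 and 238 in progeny samples. The 3 genes were lower in all sorted samples, and their progeny samples differed in order, with Tpm1 and Tpm2 highest in replicate 1 and Acta2 in replicate 3. Amotl2, a YAP target and the most abundant of the list, overlapped (535, 584 and 680.2 CPM in sorted, 765, 607 and 601 in progeny samples). The list summed to 2335, 2233 and 2763 CPM in sorted and 7221, 4599 and 4452 in progeny samples, without overlap (exact permutation p 0.1).

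Some genes outside the lists were named from the ranking of all genes by unadjusted p. Gsn, gelsolin, which severs actin filaments, read 72.2, 78 and 54.5 CPM in sorted and 257, 196 and 245 in progeny samples. Akap12, a scaffold for protein kinase A, read 501, 405 and 465 CPM in sorted and 1979.7, 1391 and 1404 in progeny samples, and Gpc4, a glypican at the cell surface, 20.8, 7.35 and 8.73 in sorted and 180.1, 76.1 and 86.2 in progeny samples. All 3 were higher in every progeny sample and passed in the fit of 18 (edgeR adjusted p 0.0495, 0.00887 and 0.00318; 0.122, 0.123 and 0.123 with 6). Vnn1, a pantetheinase, was as separate, at 6.45, 3.55 and 6.07 CPM in sorted and 81.1, 41 and 69.5 in progeny samples, and did not pass in either (0.119 with 6 and 0.439 with 18 samples, edgeR adjusted p). In the other direction, Emb, embigin, a partner of monocarboxylate transporters, read 232, 210.3 and 71.6 CPM in sorted and 23.1, 20.9 and 22.9 in progeny samples. Odc1, the rate-limiting enzyme of polyamine synthesis, read 293, 401 and 379 CPM in sorted and 125, 123 and 106 in progeny samples. These 2 genes were lower in every progeny sample and passed with 18 samples (edgeR adjusted p 0.0118 and 0.0357).

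Mesenchymal genes were mixed, with fold changes above 0 in 15 of 27 tested. Col1a1, a chain of fibrillar collagen, was near absent in sorted samples (0.661, 0 and 1.5 CPM) and present in the progeny (6.32, 99 and 67.4 CPM). Cdh2, N-cadherin, read 38, 10.2 and 16.5 CPM in sorted and 297, 103 and 70.6 in progeny samples. Zeb2, a repressor of epithelial genes, was higher in every progeny sample (58.5, 59.9 and 54.9 CPM against 22.5, 18 and 15.6), while the related repressors Zeb1 (17.4, 86.5 and 35.9 against 74.5, 47.6 and 179) and Snai2 (0, 0.826 and 1.94 against 6.61, 0 and 0) overlapped, Snai2 being near 0. Col1a1, Cdh2 and Col3a1 passed with 18 samples (edgeR adjusted p 0.0494 for Col1a1 and 0.0495 for Cdh2). Of 27 mesenchymal genes tested, 6 lay above and 0 below, the median was 0.32, and Vim, the most abundant, overlapped (535, 816 and 416 CPM in sorted, 407, 677 and 450.5 in progeny samples). The list summed to 1719, 1622 and 1287 CPM in sorted and 1762, 2483 and 2045 in progeny samples, a narrow gap without overlap (exact permutation p 0.1). Col5a1, another fibrillar collagen of the list, overlapped (30.9, 10.5 and 53.7 CPM in sorted, 41.5, 52.9 and 54.1 in progeny samples). Col2a1, a collagen of cartilage outside the lists, was low and overlapped as well (2.54, 0.12 and 15.3 CPM in sorted, 0.0972, 1.95 and 0.473 in progeny samples).

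Epithelial genes leaned higher in the progeny, though none passed with 6 samples. Of 25 tested, 23 had a fold change above 0, 9 lay above without overlap and 1 below, and the median was 1.22. Krt8, a keratin of simple epithelia, read 256, 347 and 242 CPM in sorted and 1148, 481 and 508 in progeny samples, with progeny replicate 1 the highest. Krt19, another simple keratin, read 72.8, 42.5 and 38.3 CPM in sorted and 264, 215 and 182 in progeny samples and passed with 18 samples (log2 fold change 2.10; edgeR adjusted p 0.122 with 6 and 0.0068 with 18). Jup, the junction protein plakoglobin, read 90.5, 125 and 78.2 CPM in sorted and 235, 187 and 179 in progeny samples. The summed list was 1484, 1786 and 1669.6 CPM in sorted and 6668, 2402 and 2202 in progeny samples, without overlap, and progeny replicate 1 stood well above the rest.

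**Figure D2:**
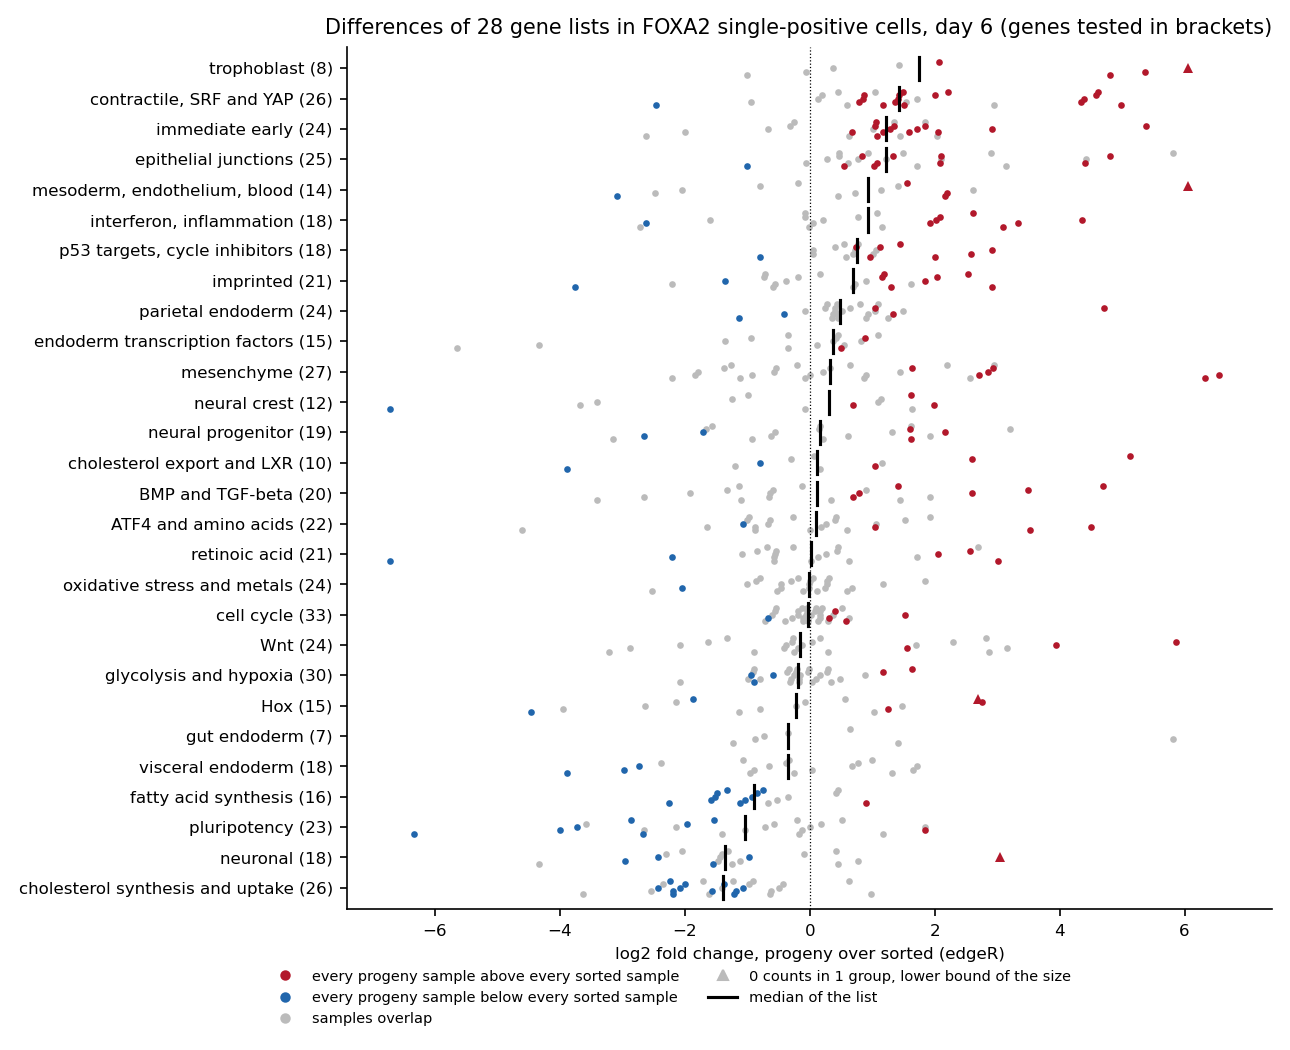
Fitted log2 fold change (progeny over sorted, edgeR) of each tested gene on 28 lists, with 1 row per list, a bar at the list's median and color for the order of the samples. The medians run from -1.39 for cholesterol synthesis to 1.75 for the trophoblast list, and triangles are lower bounds for genes at 0 counts in 1 group. The trophoblast, mesoderm, Hox and neuronal medians rest in part on genes that passed the filter only through the progeny.

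Immediate early genes, which are switched on within minutes by serum, stress or handling, leaned higher in the progeny as a group, though none passed with 6 samples. Of 24 tested, 13 lay above without overlap and 0 below, with a median of 1.23. Fosl2, an AP-1 subunit, read 26.8, 24.4 and 16.8 CPM in sorted and 91.2, 101 and 92.7 in progeny samples. It passed with 18 samples (log2 fold change 2.07; edgeR adjusted p 0.122 with 6 and 0.0114 with 18). Klf6, the most abundant of the list, was higher in every progeny sample (224, 216 and 210.3 CPM against 156, 132 and 121), as was Dusp5, a phosphatase that limits ERK (77.5, 16.5 and 11.6 against 5.07, 5.15 and 3.68). The sums were 594, 518 and 452 CPM in sorted and 1318, 1137 and 1119 in progeny samples. How sorting and harvest each bear on these transcripts was not tested.

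Promoter sequences are shown for 4 genes of these groups, since SREBP binds sterol regulatory elements and SRF binds CArG boxes in promoters. Hmgcs1, Myl9 (a myosin light chain), Vcl (vinculin) and Dusp5 were picked after their values were known, as holders of such a motif. The 1 match in Hmgcs1 is to TCACNCCAC, searched on both strands in the 250 bases before each gene's start in the RefSeq promoter table (GRCm38.p6). That motif was found in 1 of 19 cholesterol genes with an entry (5.26%), in 1.22% of all 27025 genes with an entry, and in 1.05% of all 32851 promoters. The CArG box, which reads the same on both strands, was found in 5 of 23 contractile genes (21.7%), in 3 of 21 immediate early genes (14.3%), in 1.62% of all genes and in 1.47% of all promoters. Of the genes with a CArG box, Acta1 and Srf had 0 counts in the whole series and Egr2 in the 6 samples, so their expression is not read. A match describes letters and shows no binding. The contractile list was drawn up to include targets of SRF, so its higher share is not read as a result of these data. Vcl read 184, 58.8 and 166 CPM in sorted and 433, 228 and 182 in progeny samples, which overlapped, and Myl9 4.69, 5.78 and 2.18 in sorted and 11.1, 11.4 and 11.3 in progeny samples, which did not. The windows are chr13:119690101-119690350 for Hmgcs1, chr2:156775214-156775463 for Myl9, chr14:20929148-20929397 for Vcl and chr19:53528895-53529144 for Dusp5, all on the plus strand, and capitals mark the matches, of which Dusp5 has 2 side by side.
Hmgcs1: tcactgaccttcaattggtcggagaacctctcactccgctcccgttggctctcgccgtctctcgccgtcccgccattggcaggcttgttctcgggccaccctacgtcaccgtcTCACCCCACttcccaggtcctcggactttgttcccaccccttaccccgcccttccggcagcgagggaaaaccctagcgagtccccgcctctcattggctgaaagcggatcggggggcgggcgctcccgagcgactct
Myl9: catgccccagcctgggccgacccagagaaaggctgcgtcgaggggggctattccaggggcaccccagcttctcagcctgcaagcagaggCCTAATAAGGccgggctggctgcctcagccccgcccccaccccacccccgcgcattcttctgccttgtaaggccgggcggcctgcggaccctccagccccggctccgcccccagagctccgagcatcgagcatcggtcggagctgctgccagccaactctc
Vcl: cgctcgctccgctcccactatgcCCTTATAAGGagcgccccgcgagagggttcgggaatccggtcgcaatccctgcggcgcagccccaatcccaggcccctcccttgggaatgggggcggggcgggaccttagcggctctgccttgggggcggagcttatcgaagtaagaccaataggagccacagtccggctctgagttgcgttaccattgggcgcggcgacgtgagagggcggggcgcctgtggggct
Dusp5: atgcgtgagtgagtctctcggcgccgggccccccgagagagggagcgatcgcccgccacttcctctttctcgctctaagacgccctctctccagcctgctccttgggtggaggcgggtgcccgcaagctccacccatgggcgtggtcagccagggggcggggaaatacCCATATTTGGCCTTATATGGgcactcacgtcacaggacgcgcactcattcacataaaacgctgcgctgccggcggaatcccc

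Growth control genes were split. Targets of p53 and inhibitors of the cell cycle had 7 of 18 tested members above without overlap and 1 below, with a median of 0.76, and none passed. Mdm2, the ligase that degrades p53, read 186, 242 and 134 CPM in sorted and 1225, 565 and 474 in progeny samples. Cdkn1a, the p21 inhibitor, read 65.6, 42.3 and 34.6 CPM in sorted and 151, 127 and 108 in progeny samples, and Ccng1, the most abundant of the list, 734, 970.3 and 467 in sorted and 1275, 1176 and 1193 in progeny samples. All 3 were higher in every progeny sample, as was the sum of the list (3841, 2689 and 2591 CPM against 1577, 2047 and 988). The cell cycle list itself was flat, with 4 of 33 above, 1 below and a median of -0.03. Top2a, a marker of dividing cells, read 854, 1089 and 868 CPM in sorted and 772, 869 and 819 in progeny samples, which overlapped. Ccnd2, cyclin D2, had the largest difference of the 4 that lay above (363, 460.2 and 263 CPM against 119.7, 196 and 60).

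Histone and ribosomal protein genes took a smaller share of counts in the progeny. Histone genes made up 0.557, 0.563 and 0.726% of counts in sorted and 0.155, 0.264 and 0.328% in progeny samples (exact permutation p 0.1). Ribosomal protein genes made up 2.65, 3.46 and 3.89% in sorted and 1.22, 1.65 and 2.16% in progeny samples (exact permutation p 0.1). Neither share overlapped between the groups. Hist1h4k, a histone H4 gene, read 107, 133 and 118 CPM in sorted and 27.1, 33.8 and 42.1 in progeny samples. Mitochondrial counts made up 10.4, 6.95 and 11.7% in sorted and 12.3, 11.7 and 12.3% in progeny samples, with overlap. The number of genes detected, 20171, 16459 and 17997 in sorted and 17513, 23674 and 25267 in progeny samples, overlapped as well. The part of RNA quality or of the growth state in these shares was not tested.

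Imprinted genes, which are expressed from the allele of 1 parent, included several abundant members that were higher in the progeny. Of 21 tested, 7 lay above without overlap and 2 below, with a median of 0.70, and none passed. Peg10, a retrotransposon-derived gene needed for the placenta, read 715, 728 and 507 CPM in sorted and 3207, 1627 and 2137 in progeny samples. Slc38a4, an amino acid transporter, read 50.2, 33.5 and 27.9 CPM in sorted and 346, 155 and 148 in progeny samples, and Peg3, a zinc finger gene, 836, 1249.8 and 888 in sorted and 2418, 1977 and 2210.3 in progeny samples. Igf2r, which clears IGF2, was higher in every progeny sample as well (119.5, 115 and 146 CPM against 45.9, 51.6 and 57.2), and Rian, a noncoding RNA of the Dlk1 region, was lower (18.2, 65.7 and 50.2 against 113, 117 and 111). Summed, the list gave 2446, 3173 and 1995 CPM in sorted and 7895, 5194 and 5908 in progeny samples, without overlap (exact permutation p 0.1).

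Markers of other cell types, which a replated culture could hold, were examined list by list. Pluripotency genes lay mostly lower, with 7 of 23 below without overlap, 1 above and a median of -1.03. Nanog, which marks pluripotent cells, was low throughout, at 1.49, 10.5 and 4.71 CPM in sorted and 0.437, 0.0551 and 0.544 in progeny samples. Dnmt3b, the de novo DNA methyltransferase, read 288, 256 and 151 CPM in sorted and 56.9, 55.6 and 65 in progeny samples, and Lin28a, an RNA-binding protein, 250, 369 and 249 in sorted and 90.2, 101 and 109 in progeny samples, all 3 genes being lower in every progeny sample. Klf4 stood above (93, 299 and 298 CPM against 86.9, 75.4 and 29.8), and Klf5, the most abundant, overlapped (194, 323 and 292 against 257, 240.2 and 219.9). The list summed to 1216, 1215 and 1057 CPM in sorted and 616, 978 and 1033 in progeny samples, a narrow gap without overlap.

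Neural lists were mixed. Of 19 progenitor genes tested, 3 lay above and 2 below, with a median of 0.17. Nes, nestin, an intermediate filament also found outside neural cells, read 23.9, 22.6 and 11.1 CPM in sorted and 104, 71.4 and 81.8 in progeny samples, and Meis2, the most abundant, overlapped (73.2, 86.8 and 74.6 in sorted and 46.5, 133 and 84 in progeny samples). Neuronal genes had a median of -1.35, with 4 of 18 below and 1 above. The 1 above, Isl1, was at 0 in all sorted samples and passed the filter only through the progeny. The most abundant, Ncam1, an adhesion molecule, overlapped (59.3, 15.4 and 40.3 CPM in sorted, 17.8, 85.3 and 54.7 in progeny samples), and Ebf1 was lower in every progeny sample (3.06, 10.9 and 12.8 CPM against 22.5, 28.5 and 26.7). Progenitor genes summed to 183, 189.7 and 218 CPM in sorted and 302, 351 and 317 in progeny samples, without overlap (exact permutation p 0.1), but without Nes the sums overlapped (159, 167 and 207 CPM in sorted, 198, 279.5 and 235 in progeny samples). Without Meis2 the progenitor sums stayed apart (109.6, 103 and 143 CPM in sorted, 256, 218 and 233 in progeny samples). Neuronal genes summed to 162, 153 and 356 in sorted and 69.1, 184 and 147 in progeny samples, with overlap. Without Ncam1 the neuronal sums were lower in every progeny sample (103, 138 and 315 CPM in sorted, 51.3, 99 and 92.1 in progeny samples, exact permutation p 0.1). Neural crest genes lay above in 3 of 12 and below in 1. Their most abundant member, Ets1, a transcription factor of many cell types, read 29.5, 41.1 and 25.6 CPM in sorted and 163, 118 and 100.4 in progeny samples and passed with 18 samples (edgeR adjusted p 0.123 with 6 and 0.0193 with 18). That list summed to 136, 142 and 146 CPM in sorted and 249, 212 and 190.1 in progeny samples, a gap that came from Ets1, since without it the sums were 106, 101 and 120.3 CPM in sorted and 85.9, 94.6 and 89.7 in progeny samples, lower in every progeny sample.

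Trophoblast-listed genes had the highest median of all lists, 1.75 over 8 tested of 13, with 4 above without overlap and 0 below, and none passed. Hand1 and Esx1, at or near 0 in the sorted samples, passed the filter on low counts only through the progeny. Such members raise the median and the count above, so neither is read as a result. Their sum was 23.3, 22.5 and 22.4 CPM in sorted and 288, 59.4 and 68.2 in progeny samples, and progeny replicate 1 held most of it. Krt7, a keratin shared with other epithelia and the most abundant, read 3.2, 4.94 and 0.0682 CPM in sorted and 198, 14.4 and 17.9 in progeny samples. Esx1, a homeobox gene of the placenta, read 1.38, 0 and 0 CPM in sorted and 49.8, 3.3 and 4.3 in progeny samples. Hand1, needed in trophoblast giant cells and in mesoderm, was at 0 in all sorted samples and at 14.1, 1.87 and 3.55 CPM in the progeny. In all 3 genes replicate 1 was the highest progeny sample. Tpbpa, a marker of the placental spongiotrophoblast, was at 0 in all 6 samples.

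Mesoderm, endothelial and blood genes lay above in 4 of 14 tested and below in 1, with a median of 0.94, and their sums overlapped (151, 103 and 191 CPM in sorted, 180.4, 159 and 131 in progeny samples). Hand1, 1 of the 4, was at 0 in all sorted samples and passed the filter only through the progeny. The count above and the median are therefore not read as a result. Without Runx1 the sums were higher in every progeny sample (61.4, 49.9 and 92.2 CPM in sorted, 115, 120.3 and 95.4 in progeny samples, exact permutation p 0.1). Kdr and Tek, receptors of endothelium, were higher in every progeny sample (Kdr 5.73, 21.6 and 12.2 CPM against 5.24, 0 and 3.62, Tek 63.5, 36.7 and 23.8 against 22.4, 16.8 and 3.31). Pecam1, an adhesion molecule of endothelium, was lower in every progeny sample (0.632, 4.07 and 3.47 against 12.7, 12.9 and 44.1), Runx1, the most abundant, overlapped (64.9, 38.7 and 35.4 against 89.7, 53.2 and 99), and T, Mesp1 and Etv2 were at 0 in all 6 samples. Gut endoderm genes separated the groups in 0 of 7 in either direction. Cldn4, a claudin and the most abundant of them, read 0.937, 0.723 and 0 CPM in sorted and 85.2, 0.909 and 7.85 in progeny samples, so that progeny replicate 1 alone stood high. The gut list summed to 31.5, 13.9 and 74.9 CPM in sorted and 125, 36.2 and 35.2 in progeny samples. Whether other cells among the progeny bear on any of the differences above was not tested.

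Genes of retinoic acid handling, the signal both sides received, were mixed. Cyp26a1, the enzyme that breaks retinoic acid down and a classic target of it, read 416, 215 and 97.6 CPM in sorted and 264, 237 and 296 in progeny samples, which overlapped. Rdh10, which makes retinaldehyde from retinol, was higher in every progeny sample (165, 30.1 and 33.3 CPM against 12.6, 5.36 and 10.4). Crabp1 and Crabp2, which bind retinoic acid in the cytoplasm, were lower in every progeny sample (Crabp1 0, 0.0551 and 0.331 CPM against 1.6, 26.2 and 13.4, Crabp2 1.17, 5.2 and 4.49 against 11.9, 21.1 and 17). Rarg, a receptor, was higher (37.1, 18.6 and 17.9 against 6.53, 10.8 and 0.341). Over the list, 3 of 21 lay above, 2 below, and the median was 0.03. Of 39 Hox genes, which retinoic acid induces in order along the clusters, 15 were tested, 3 lay above and 2 below, with a median of -0.22. Their sum was lower in every progeny sample (28.7, 34.7 and 23.8 CPM against 36.5, 63.5 and 42, exact permutation p 0.1), although Hoxb4, the most abundant, was higher (11.5, 12.4 and 8.15 against 7.99, 5.42 and 0). Hoxa2, among the 3 above, was at 0 in all sorted samples and passed the filter only through the progeny.

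Signalling lists were examined next. BMP and TGF-beta targets had 6 of 20 above, 0 below and a median of 0.11. Smad7, which dampens TGF-beta signals, read 31.1, 26.5 and 25.2 CPM in sorted and 103, 63.5 and 55.2 in progeny samples, Nog, a BMP antagonist, 6.01, 16.7 and 18.7 in sorted and 20.6, 113 and 116 in progeny samples, and Fst, which traps activin, 728, 368 and 103 in sorted and 370.4, 896 and 972 in progeny samples. Smad7 and Nog were higher in every progeny sample and Fst, the most abundant, overlapped. The BMP and TGF-beta list summed to 1029.9, 626 and 519 CPM in sorted and 971, 1433 and 1480.2 in progeny samples, with overlap. Without Fst its sums were higher in every progeny sample (302, 258 and 416 CPM in sorted, 600.3, 537 and 509 in progeny samples, exact permutation p 0.1). Wnt genes had 3 of 24 above, 0 below, near the shares of all genes, and a median of -0.16. Wls, which escorts Wnt proteins out of the cell, read 45.4, 37.5 and 24.2 CPM in sorted and 144, 80.8 and 88.2 in progeny samples, and the ligand Wnt4 1.27, 0 and 0 in sorted and 55.7, 9.1 and 10.3 in progeny samples, with progeny replicate 1 the highest in both. Znrf3, the most abundant, overlapped (156, 94.2 and 60.6 CPM in sorted, 126, 127 and 66.3 in progeny samples). Interferon and inflammation genes had 7 of 18 above, 1 below and a median of 0.93. Among them were Tap1, a peptide transporter for antigen presentation (60.2, 21.8 and 25.8 CPM in progeny, 4.13, 3.61 and 4.91 in sorted samples), and Socs3, the most abundant, which overlapped (45.5, 98 and 118 in progeny, 46.4, 44.5 and 61.9 in sorted samples). The interferon and inflammation list summed to 202, 207 and 228 CPM in sorted and 422, 294 and 332 in progeny samples, without overlap (exact permutation p 0.1). None of these genes passed.

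Metabolic lists other than lipid synthesis were near the background. Glycolysis and hypoxia genes had 2 of 30 above, 3 below and a median of -0.19. Slc2a1, the GLUT1 glucose transporter, was higher in every progeny sample (286, 75.3 and 71.7 CPM against 61.5, 47.4 and 30.6), and Gapdh, the most abundant, overlapped (507, 705 and 657 against 744, 1058 and 598). Amino acid and ATF4 genes had 3 of 22 above and 1 below. Slc38a2, a glutamine transporter, read 250.5, 136 and 127 CPM in sorted and 298, 372 and 388 in progeny samples, and Asns, asparagine synthetase, 76.3, 65 and 103 in sorted and 13.7, 46.1 and 56.7 in progeny samples, opposite in direction. Oxidative stress and metal genes had 0 of 24 above and 1 below. That member was Mt1, a metallothionein (2.53, 8.56 and 9.31 CPM in progeny, 54.5, 19.8 and 9.82 in sorted samples), and Gpx3, the most abundant, overlapped (539, 645 and 757 in progeny, 739, 448 and 408 in sorted samples).

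The same contrast at day 4 asks whether the difference was already there 2 days after replating, in 6 other samples of the same populations. There 75 of 18621 genes passed as higher in progeny (0.403%) and 36 as lower (0.193%). Col1a1 and Col3a1, contractile genes with Acta2, Tpm1 and Tpm2, and the keratin Krt8 rose, while Col2a1, Cyp51, Hmgcs1, Fdft1 and Scd1 fell. Cyp51 read 216, 144 and 98 CPM in day 4 sorted and 18.1, 22.3 and 47.6 in day 4 progeny samples (log2 fold change -2.37, edgeR adjusted p 0.0158), each progeny sample being lower. Tpm2 read 20.7, 40.1 and 19.2 CPM in sorted and 252, 209 and 162 in progeny samples (log2 fold change 2.96, edgeR adjusted p 0.00183), each progeny sample being higher. Cholesterol genes had 4 of 25 tested that fell and a median of -1.24, and contractile genes 7 of 25 that rose and a median of 1.60. Epithelial and immediate early genes kept their lean, with medians of 0.91 and 1.11, but other lists did not. Parietal endoderm genes had fold changes above 0 in 5 of 24 (20.8%, beside 47.5% of all genes), with a median of -0.17. Interferon and inflammation genes separated in 0 of 18 in either direction, with a median of 0.09. Pluripotency genes lay below without overlap in 1 of 24 and above in 2. Apoe did not pass at day 4, at 164, 53.2 and 26.3 CPM in sorted and 18.9, 45.7 and 29.9 in progeny samples (log2 fold change -1.36, edgeR adjusted p 0.434). The number of calls fell to 28 without day 4 progeny replicate 1, the shallowest library, and to 59 without day 4 sorted replicate 1.

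Most genes that passed at day 4 kept their direction at day 6, in samples that the day 4 test did not use. Of 111 genes, 110 were tested at day 6 and 108 had the same direction, beside 64% of all 16875 genes tested on both days. Without overlap at day 6 were 55 of 75 genes that rose at day 4 and 24 of 35 that fell. The 2 exceptions in direction were Fras1 and Tec, and Vtn was not tested at day 6.

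**Figure D3:**
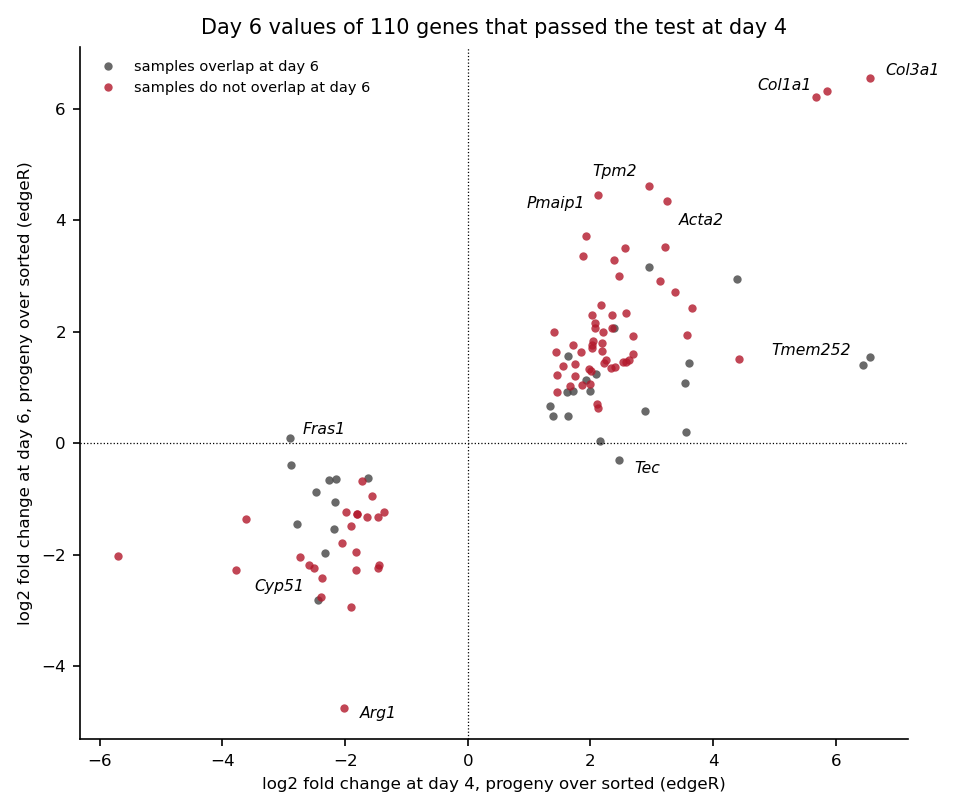
Log2 fold change at day 4 (horizontal) and at day 6 (vertical), progeny over sorted by edgeR, of the 110 genes that passed at day 4 and were tested at day 6, colored by whether the day 6 samples overlap. All but Fras1 and Tec lie on the same side of 0 on both days, and the horizontal position of Tmem252 is a lower bound, since it had 0 counts in the day 4 sorted samples.

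A direct test of change from day 4 to day 6 passed for Fras1, as 1 of 21793 genes (0.00459%). Fras1 encodes an extracellular matrix protein that anchors epithelium to basement membrane. At day 4 it read 159.8, 339 and 178 CPM in sorted and 30.7, 25.4 and 34.9 in progeny samples, all progeny being lower, and at day 6 it read 54.3, 44.7 and 42.1 in sorted and 55.2, 52.7 and 43.1 in progeny samples, which overlapped. The change of its difference was 3.04 on the log2 scale (SE 0.446, edgeR adjusted p 0.036). It did not pass without day 6 progeny replicate 1 or 2, day 6 sorted replicate 2, any of the day 4 progeny replicates 1, 2 and 3, or day 4 sorted replicate 2, at edgeR adjusted p values of 0.0677, 0.0915, 0.146, 0.168, 0.174, 0.058 and 0.201. Without day 6 sorted replicate 1 the count rose to 11.

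Sox1 single-positive cells at day 6 were compared in the same way, to set the FOXA2 difference beside that of another population. In them 1724 of 20674 genes passed as higher in progeny (8.34%) and 2071 as lower (10%). Several leanings of the FOXA2 progeny were shared. Sox1 medians were 2.89 for contractile, 1.54 for immediate early and 1.85 for p53 and cycle inhibitor genes. They were -0.58 for cholesterol genes but 0.16 for fatty acid genes. Acta2, Krt19, Fosl2 and Col1a1 had Sox1 log2 fold changes of 6.53, 4.03, 4.38 and 7.19. The test of the difference between the 2 populations, on 12 samples, passed for 40 of 23203 genes (0.172%), 14 with a higher and 26 with a lower progeny difference in FOXA2 cells. In 25 of the 26 lower genes the Sox1 progeny had risen, with a median of 3.02 against -0.02 in FOXA2 cells. All 14 higher genes had fallen in the Sox1 progeny, with a median of -2.72 against 0.69. The 40 genes were picked by that test in the same 12 samples, so gaps between these medians follow from the choice.

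The lower genes included endoderm and matrix genes that FOXA2 cells already expressed. Col4a1 read 70.2, 15.5 and 67.4 CPM in Sox1 sorted and 1792, 1659 and 485 in Sox1 progeny samples, and in FOXA2 cells, with the values given above, it was far higher on both sides. The log2 difference of differences was -4.16 (edgeR adjusted p 0.0489). Pdgfra, a growth factor receptor of primitive endoderm and mesoderm, read 637, 415 and 176 CPM in FOXA2 sorted and 219, 609 and 625 in FOXA2 progeny samples, and 6.9, 12.2 and 2.08 in sorted and 133, 164 and 109 in progeny samples of Sox1 cells. Ctsc, cathepsin C, a lysosomal protease, read 74.4, 18.5 and 34.1 CPM in sorted and 13.9, 40.1 and 29.2 in progeny samples of FOXA2 cells and 3.01, 2.5 and 2.16 in sorted and 28.9, 46.1 and 27.2 in progeny samples of Sox1 cells. For both genes all Sox1 progeny samples were above all Sox1 sorted samples while the FOXA2 samples overlapped, and the log2 differences were -3.96 and -4.27 (edgeR adjusted p 0.0495 and 0.043). With Gata6, Sparc, Cubn and Dab2, 6 lower genes came from the lists of endoderm factors, parietal and visceral endoderm (17, 24 and 27 genes). Over all genes tested it was 26 of 23203, and enrichment of the lists was not tested. Emb was the 1 lower gene that had not risen in Sox1 progeny, at 91.8, 82.7 and 53.8 CPM in Sox1 sorted and 91.4, 93.4 and 52 in Sox1 progeny samples.

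The higher genes had the largest differences in Ankrd31, Ptprb and Rp1. Ankrd31, a meiotic recombination gene, read 1.54, 0.753 and 0.478 CPM in FOXA2 sorted and 4.42, 8.15 and 4.11 in FOXA2 progeny samples, and 29.8, 20.7 and 59.4 in sorted and 3.11, 4.66 and 5.45 in progeny samples of Sox1 cells. Ptprb, a receptor phosphatase of endothelium, read 7.83, 7.89 and 13.8 CPM in sorted and 65.8, 20.9 and 21.9 in progeny samples of FOXA2 cells and 20.3, 7.42 and 31.6 in sorted and 2.81, 1.92 and 3.43 in progeny samples of Sox1 cells. In both, FOXA2 progeny lay above FOXA2 sorted samples and Sox1 progeny below Sox1 sorted samples. Rp1, a microtubule protein of photoreceptors, read 3.86, 8.55 and 5.05 CPM in sorted and 5.03, 14 and 9.81 in progeny samples of FOXA2 cells, which overlapped, and 45.6, 59.2 and 51.7 in sorted and 3.55, 2.82 and 6.26 in progeny samples of Sox1 cells. The log2 differences were 5.72, 4.84 and 4.46 (edgeR adjusted p 0.0459, 0.0484 and 0.0459).

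The number of such genes depended on single samples. It was 278 without FOXA2 sorted replicate 3, 68 without FOXA2 sorted replicate 1, and 18, 9 and 18 without FOXA2 progeny replicates 1, 2 and 3. It was 2 and 10 without Sox1 progeny replicates 1 and 2, and 16 and 18 without Sox1 sorted replicates 2 and 3. Of the 12 leave-outs, Col4a1, Pdgfra and Ctsc passed in 3, 3 and 3, and Ankrd31, Ptprb and Rp1 in 2, 2 and 4. Anxa2 and Cecr2 passed in all 12.

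**Figure D4:**
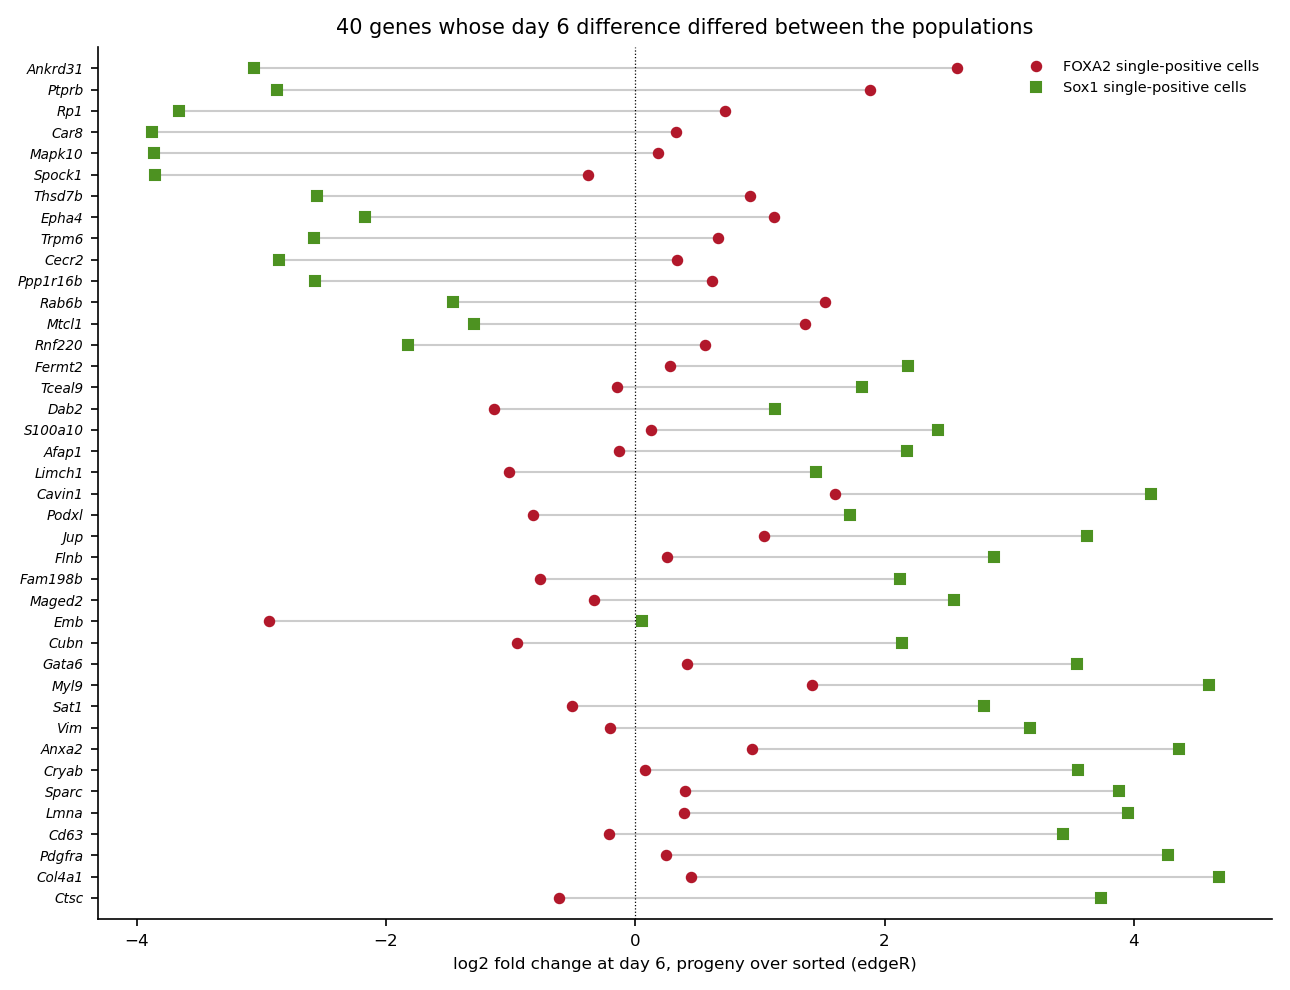
Log2 fold change at day 6 (progeny over sorted, edgeR) in FOXA2 (circles) and Sox1 (squares) single-positive cells for the 40 genes whose difference passed the test between the populations. The FOXA2 values of the 26 lower genes have a median of -0.02 and the Sox1 values one of 3.02. The genes were picked for such a difference in these same samples.

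Against cells positive for both reporters at day 6, the same test on 12 samples passed for 0 of 22754 genes (0%) by edgeR, with 1371 at an unadjusted p under 0.05, while DESeq2 called 518. It passed for 2 genes without FOXA2 sorted replicate 1, and for 1 each without FOXA2 sorted replicate 2 or double-positive sorted replicate 3. The sorted double-positive samples varied most, with a median standard deviation of log2 CPM of 0.6, and a count of 0 there does not show that the populations responded alike.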

How the data were processed

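The authors deposited 1 table of raw read counts per gene for 57 samples, made from SMART-Seq Stranded libraries that they aligned with STAR and counted with featureCounts on GENCODE M21 (GRCm38). Of nonzero counts, 80.6% were even, and 92 rows that are not genes held 0 counts. Of 21951 protein-coding rows, 1848 (8.42%) were 0 in all samples. Symbols, positions and gene types came from GENCODE M21.

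From the counts, edgeR 4.0.16 (R 4.3.3) fitted a quasi-likelihood model to the 6 samples of each comparison, or to 12 for a difference of differences, after filterByExpr (minimum count 10, total 15) and TMM scaling. Tests were two-sided, with Benjamini-Hochberg adjustment over all genes tested. The script was tested on simulated data. The CPM values, log2 fold changes and standard errors were computed from those counts. Single values per sample were compared by two-sided exact permutation. Alternatives were DESeq2 1.42.0, its size factors, no filter, a replicate block, 18 or 57 samples in 1 fit, limma 3.58.1 voom with group weights, a minimum fold change of 2 and leaving out each sample. Halved counts and a fit of the 12 FOXA2 samples of both days were chosen after seeing the data.

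The members and the 28 gene lists were chosen with earlier results of these data known. The genes named were Foxa2, Sox1, the most abundant gene of each list, genes that passed, and the 3 highest and lowest in each test of a difference of differences. Since 1 gene passed, a further rule was added after the values were seen, namely up to 3 genes per list and direction, and 10 per direction over all genes, with the smallest p among genes without overlap and a mean of at least 10 CPM in the higher group. Other genes were likewise named after their values were seen. A fold against a group at 0 is a bound from 3 counts per library and the mean of the other group, which covers counting error only. Why most counts were even was not determined, and if each read pair was counted as 2 that floor would be 6. Depths ran from 26156124 to 76784146 counts in the 6 samples.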

Additional observations from a re-analysis of the deposited data

Results flagged for a closer look

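A difference between groups was found at day 6, where the change from sorted to progeny differed between FOXA2 and Sox1 single-positive cells for 40 genes. On the log2 scale it was higher in FOXA2 cells by 5.72 for Ankrd31, 4.84 for Ptprb and 4.46 for Rp1, and lower at -4.27 for Ctsc, -4.16 for Col4a1 and -3.96 for Pdgfra. The change from sorted to progeny also differed between day 4 and day 6 for 1 gene, Fras1, by 3.04. Each rests on 3 samples per group. Cells of other kinds in a culture and a change within cells cannot be told apart in pools of cells, and neither explanation was tested.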

How the results depend on the processing

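The number of genes that passed at day 6, 1 in the edgeR fit of 6 samples, was 755 with DESeq2, 524 without the filter on low counts, 37 with 18 samples in 1 fit, 56 with all 57, 11 with limma voom and group weights, 62 with the 12 FOXA2 samples of both days, and 0 to 12 with 1 sample left out. DESeq2 size factors, a minimum fold change of 2 and halved counts left it at 1. Halved counts and the 12 samples were chosen after seeing the data. The DESeq2 fits, the fits without a filter and those with more samples test other sets of genes, and the cause of the further differences was not tested. Against Sox1 cells the number went from 40 to 1281 with DESeq2, 408 without a filter and 2 to 278 with 1 sample left out. Against double-positive cells it went from 0 to 518, 51 and 0 to 2, from day 4 to day 6 from 1 to 164, 71 and 0 to 11, and for day 4 from 111 to 537, 461 and 28 to 160. Apoe kept its direction in every fit and Fras1 likewise.

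With the replicate number as a block, 71 genes passed at day 6 and 497 at day 4. Same-numbered day 6 samples did not deviate together (correlations 0.0222, -0.0516 and -0.0134 over 5000 genes). At day 4 the correlations were 0.0894, 0.308 and 0.304, so replicates 2 and 3 shared some deviation there and replicate 1 little. They were 0.0218, -0.347 and -0.0944 in Sox1 cells and -0.00408, -0.281 and -0.131 in double-positive cells at day 6. The labels do not say what a number shares, and the numbers were not taken as pairs. Against Sox1 cells 58 genes passed with the block, against double-positive cells 0, and from day 4 to day 6 1.

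Among named genes at day 6, 1533 values kept direction and side of the threshold, 202 passed only in the alternative and 5 only without it. In 20 the sign turned, all in genes whose groups overlapped. With 1 sample left out, log2 fold changes ran from -0.97 to 0.14 for Ctsc, -0.24 to 0.81 for Cyp26a1, -0.12 to 0.34 for Gata4, -0.25 to 0.49 for Meis2, -0.0709 to 1.00 for Ncam1, -0.11 to 0.75 for Pdgfra, -0.58 to 0.0481 for Scd2, -0.17 to 0.89 for Soat1, -2.40 to 8.36 for Snai2, which was near 0 CPM, -0.45 to 0.12 for Vim and -0.23 to 0.51 for Znrf3. Without sorted replicate 1 the log2 fold change was 0.14 for Ctsc, 8.36 for Snai2 and 0.0481 for Scd2, and without sorted replicate 2 it was 0.12 for Vim and -0.01 for Znrf3. Without sorted replicate 3 it was -0.24 for Cyp26a1, -0.02 for Gata4, -0.11 for Pdgfra, -0.17 for Soat1 and -0.23 for Znrf3. Without progeny replicate 2 it was -0.12 for Gata4, -0.25 for Meis2, -0.0709 for Ncam1 and -0.10 for Znrf3. Without progeny replicate 1 it was -0.09 for Znrf3, and without progeny replicate 3 it was -0.01 for Soat1. Snai2 stood at 5.58 with the replicate block and 1.22 with limma voom and group weights. Znrf3 stood at -0.002355 with DESeq2 and -0.002783 with its size factors. Summed lists turned sign without scaling for visceral endoderm (log2 ratio -0.0581), mesoderm (-0.0927), cell cycle (-0.0903) and oxidative stress (-0.0942; -0.00369 with size factors). The cause was not tested.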
